A study of Homo sapiens with 24 samples.

Results

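The AP-1 subunit genes were FOS, FOSB, FOSL1, FOSL2, JUN, JUNB, JUND, ATF3 and BATF3, taken by name, and are 9 of the 19794 protein-coding genes annotated here on hg19. Their chromatin was described in PANC-1, an established line of human pancreatic cancer cells, with peak lists of 3 histone modifications. These were H3K4me3, found at promoters, H3K27ac, found at active promoters and enhancers, and H3K27me3, the mark of Polycomb repression. The cells had received a control siRNA (siControl), siControl and TGFβ (siControl+TGFβ), or an siRNA against PHF13 and TGFβ (siPHF13+TGFβ). TGFβ was given at 10 ng/ml for 48 h, and each group had 2 libraries per modification, so that 18 lists were compared. The lists measure neither RNA nor protein, so the depletion of PHF13 was not checked here. Nothing in the labels says that the 2 libraries came from separate cultures, so any p-value measures only the spread between these libraries.

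AP-1 is a transcription factor made of pairs of basic leucine zipper proteins. A FOS protein needs a partner, usually a JUN protein, whereas JUN proteins also pair with themselves, and ATF3 and BATF3 are further partners of JUN. The pairs bind the sequence TGANTCA or the longer TGACGTCA, and cooperate with SMAD proteins, the nuclear effectors of TGFβ, at many target genes. Immediate early genes, switched on within minutes of a growth or stress signal, include FOS, FOSB, JUNB and ATF3 among others.

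3 facts of the libraries touch all results. In siPHF13+TGFβ replicate 1 the H3K27ac list held 6004 peaks over 1.89 Mb, against 19413 to 36104 peaks in the other 5 lists, and its H3K4me3 and H3K27me3 lists were also the shortest. Peak names inside the siControl+TGFβ lists carry the abbreviation 3AT and those inside the siPHF13+TGFβ lists NCT, which the study uses for siControl+TGFβ. Groups follow the labels, and if these were exchanged, each direction between the TGFβ-treated groups would be the opposite and the comparison with siControl would rest on the other libraries. The lists hold no reads, so depth is unknown, and covered length also varies with how many peaks a library yielded. The keratin genes KRT8, KRT18 and KRT19, active in epithelial cells, had H3K4me3 peaks in all 6 lists, KRT7 in 1 and INS, a beta cell gene, in 2, and PTPRC, CD3E, ALB and GCG, which mark leukocytes, T cells, hepatocytes and pancreatic alpha cells, in 0.

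The promoters differed in the motifs that their DNA holds. In the 500 bases before each member's start (GRCh37, the sequence of hg19), the AP-1 motif TGANTCA was found in 0 of 9 members and in 9.73% of all protein-coding genes. The other motifs are given for FOS, JUN and JUND alone, so the members named for them are not a full count. Of these 3, JUND held the cyclic AMP response element TGACGTCA (2.89% of all genes), and FOS a CArG box, the binding sequence of serum response factor (2.4%). The SMAD palindrome GTCTAGAC was found at 0 members (0.293%). The variant TGACATCA, added after the sequences were seen, was found at JUN (2.75%). Both strands were searched and no match overlapped another. The stretches with a match at FOS, JUN and JUND are shown 5′ to 3′ along the gene, with the match in capitals, because the peaks lay differently about them.
FOS, chr14:75745172-75745271 (plus strand): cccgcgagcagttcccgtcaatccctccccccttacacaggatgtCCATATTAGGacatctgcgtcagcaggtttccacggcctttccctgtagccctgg
JUN, chr1:59249734-59249831 (minus strand): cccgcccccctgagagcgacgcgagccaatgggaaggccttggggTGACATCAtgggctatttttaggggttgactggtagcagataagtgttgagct
JUND, chr19:18392580-18392677 (minus strand): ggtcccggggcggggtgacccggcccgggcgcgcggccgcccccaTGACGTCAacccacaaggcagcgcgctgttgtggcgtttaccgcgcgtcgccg
The FOS stretch lay under H3K4me3 in 3 lists. H3K27ac covered its CArG match in 4 lists, and in siControl replicate 1 the peak began at −266, past the match. The JUN and JUND stretches, whose matches begin at −67 and −200 relative to the start, lay under a peak of either mark in 0 lists, because the peaks there stood on both sides of the start.

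To describe the promoters, the length covered by peaks was summed within 5 kb of the transcription start sites of each gene. H3K4me3 was present at all 9 members in all 6 lists, as at 72.7% of protein-coding genes. The members then fell into groups by the other marks. H3K27me3 was present in all 6 lists at FOS, ATF3 and BATF3 and in 0 lists at the other 6 members. Its strongest peak had a −log10 q of 1.44 to 1.80 at FOS, 1.87 to 2.72 at BATF3 and 2.94 to 4.41 at ATF3. The H3K27me3 lists reach down to 1.00, and at −log10 q of at least 3 FOS and BATF3 would hold no such peak. H3K4me3 and H3K27me3 together in all 6 lists were found at 14.1% of protein-coding genes, and H3K4me3 in 6 with H3K27me3 in 0 at 43.2%. H3K27ac was present in 5 or more lists at 7 members, which 49.6% of genes reach, in 2 lists at FOSB and in 0 at BATF3. BATF3 was thus the single member with both H3K4me3 and H3K27me3 in all lists and no H3K27ac, a state held by 7.44% of genes.

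**Figure D1:**
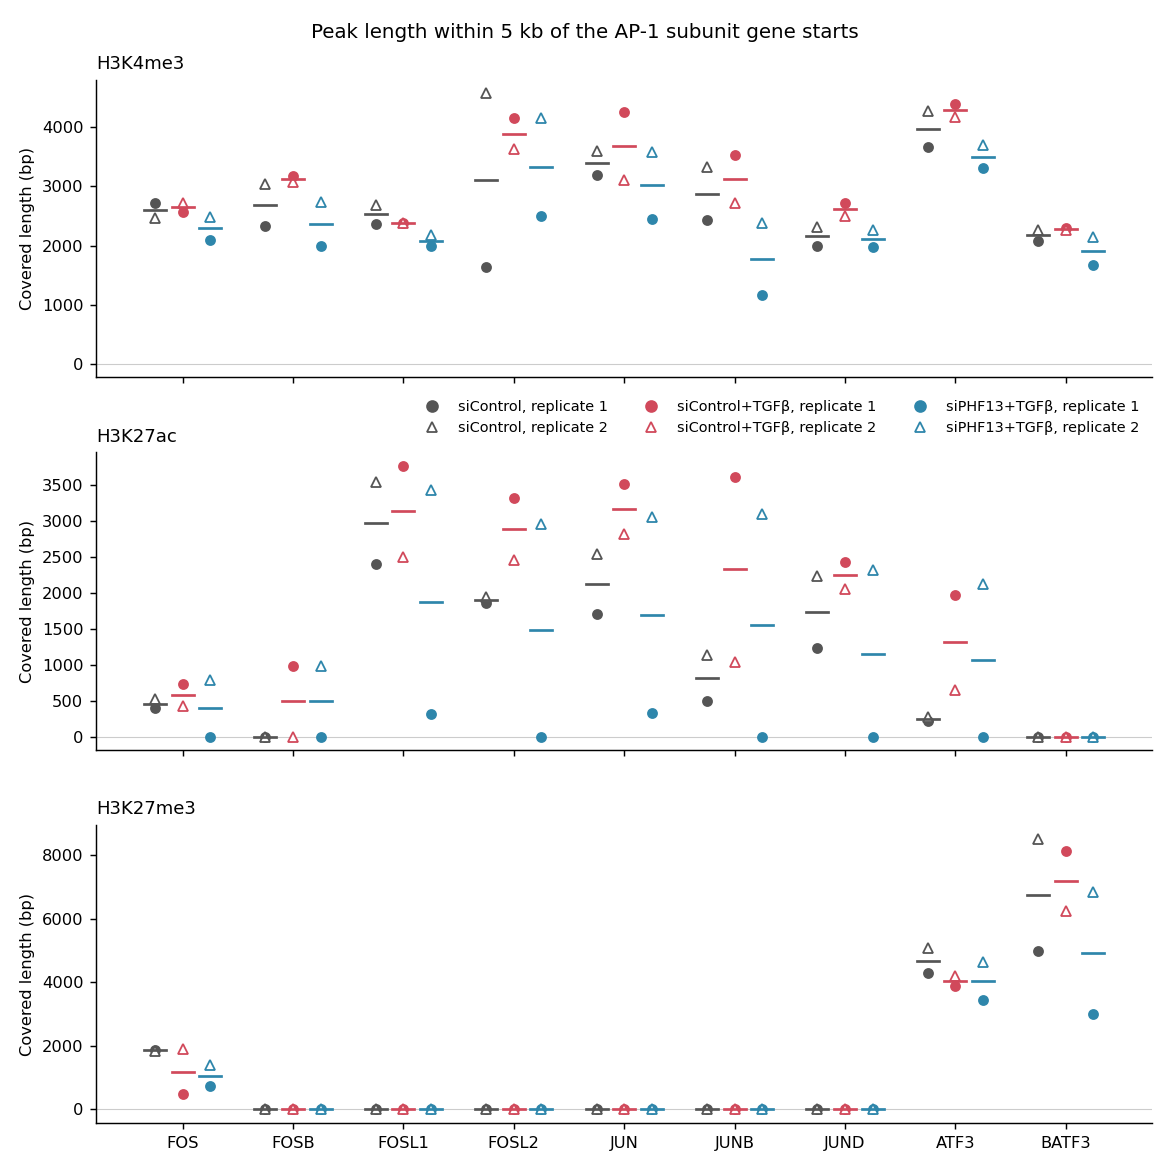
Length covered by peaks (bp) within 5 kb of the starts of each AP-1 subunit gene, by modification and library (points) with the mean of the 2 libraries of a group (lines). H3K27me3 lies at FOS, ATF3 and BATF3, and siPHF13+TGFβ replicate 1 is between 0 and 331 bp for H3K27ac at every member.

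Of the FOS family, FOS itself (chr14:75745529-75748933, plus strand), the classical immediate early partner of JUN, had short H3K27ac peaks on its start. H3K4me3 occupied 2713 and 2473 bp without TGFβ, 2575 and 2720 bp with it and 2089 and 2490 bp once PHF13 was also depleted. H3K27ac occupied 396 and 520 bp, 732 and 429 bp, and 0 and 789 bp in the same order, so that the ranges of the groups overlapped. H3K27me3 occupied 1876 and 1843 bp, 469 and 1899 bp, and 727 and 1386 bp. Its peaks ended between positions −4534 and −2256 relative to the start and shared 0 bp with H3K4me3 in every library, so the 2 marks at FOS were neighbours and not overlaid.

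FOSB (chr19:45971253-45978437, plus strand), which encodes a partner of JUN best known in stimulated neurons, had long H3K4me3 and little H3K27ac. H3K4me3 occupied 2337 and 3047 bp in untreated, 3173 and 3066 bp in TGFβ-treated and 1988 and 2731 bp in PHF13-depleted, TGFβ-treated cells. H3K27ac was absent from both siControl lists and present in 1 library of each TGFβ-treated group, with 988 bp in siControl+TGFβ replicate 1 and 983 bp in siPHF13+TGFβ replicate 2. These 2 libraries had the longest H3K27ac lists.

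FOSL1 (chr11:65659520-65668044, minus strand) encodes FRA1, the FOS protein most often linked with invasive carcinoma cells, and it carried the longest H3K27ac of the members. H3K27ac occupied 2404 and 3543 bp in siControl cells, 3768 and 2504 bp with TGFβ added and 320 and 3431 bp with siPHF13 and TGFβ. Its mean was above that of 98.7% of protein-coding genes. H3K4me3 occupied 2372 and 2687 bp, 2382 and 2378 bp, and 1992 and 2178 bp. FOSL1 and JUN were the members that kept an H3K27ac peak in the short list of siPHF13+TGFβ replicate 1.

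FOSL2 (chr2:28615315-28640184, plus strand), which encodes FRA2, had H3K27ac of 1856 and 1943 bp without TGFβ, 3329 and 2466 bp with it and 0 and 2966 bp once PHF13 was also depleted. Both siControl+TGFβ libraries were above both siControl libraries, with means of 2897.5 ± 610 and 1899.5 ± 61.5 bp (SD, n = 2). Its H3K4me3 varied most within a group, with 1645 and 4572 bp in untreated, 4149 and 3628 bp in TGFβ-treated and 2492 and 4148 bp in PHF13-depleted, TGFβ-treated cells.

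Of the JUN family, JUN (chr1:59242517-59249720, minus strand), the founding AP-1 subunit and target of the JUN N-terminal kinases, had long peaks of both active marks. H3K4me3 occupied 3199 and 3600 bp in siControl cells, 4250 and 3111 bp with TGFβ added and 2452 and 3582 bp with siPHF13 and TGFβ. H3K27ac occupied 1702 and 2543 bp, 3522 and 2816 bp, and 331 and 3052 bp. For H3K27ac both siControl+TGFβ libraries exceeded both siControl libraries (3169 ± 499 against 2122.5 ± 595 bp, SD, n = 2), and of the siPHF13+TGFβ libraries replicate 2 lay between the siControl+TGFβ libraries and replicate 1 below all others.

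JUNB (chr19:12902300-12904129, plus strand), an immediate early gene that TGFβ signalling is known to induce, showed the largest difference in H3K27ac between the 2 siControl+TGFβ libraries of any member. H3K27ac occupied 503 and 1135 bp without TGFβ, 3620 and 1042 bp with it and 0 and 3101 bp once PHF13 was also depleted, so that replicate 2 of siControl+TGFβ was within the siControl range. H3K4me3 occupied 2427 and 3323 bp, 3525 and 2722 bp, and 1168 and 2384 bp. Another gene, HOOK2, has transcript starts within 5 kb of JUNB, and peaks there cannot be told apart from those of JUNB. The same limit holds where non-coding genes start in a member's window. These include LINC01135 at JUN, FOSL2-AS1 at FOSL2, MIR3188 at JUND and RN7SL512P at ATF3.

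JUND (chr19:18390504-18392432, minus strand), the JUN gene that is expressed most evenly across cell states, had H3K27ac in every library except siPHF13+TGFβ replicate 1. H3K27ac occupied 1231 and 2240 bp in untreated, 2436 and 2052 bp in TGFβ-treated and 0 and 2315 bp in PHF13-depleted, TGFβ-treated cells. H3K4me3 occupied 1999 and 2309 bp, 2727 and 2496 bp, and 1975 and 2260 bp, so that both siControl+TGFβ libraries lay above the other 4.

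ATF3 (chr1:212738676-212794119, plus strand) encodes a stress-induced partner of JUN that TGFβ is known to induce through SMAD3, and its 5 starts lie in 2 separate windows of 26419 bp in all, the most of any member. At the upstream start (position 212738676) H3K27ac occupied 0 and 0 bp in siControl cells, 744 and 337 bp with TGFβ added and 0 and 664 bp with siPHF13 and TGFβ. Around the main start (position 212782103) it occupied 218 and 270 bp, 1234 and 309 bp, and 0 and 1460 bp. H3K27ac at the upstream start was thus present only in TGFβ-treated libraries, 3 of the 4, while H3K4me3 there covered 898 to 1276 bp in all 6 and H3K27me3 0 bp.

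H3K27me3 at ATF3 lay mostly before the main start. It occupied 4279 and 5087 bp without TGFβ, 3882 and 4210 bp with it and 3444 and 4630 bp once PHF13 was also depleted, and in all 6 libraries the upstream peaks stopped between positions −859 and −567. Its strongest peak was stronger than that of 96.9% to 99.2% of protein-coding genes in every list. H3K4me3 there overlaid H3K27me3 over 172 to 1411 bp, and H3K27ac overlaid it over 81 and 116 bp in 2 libraries and over 0 bp in the other 4.

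BATF3 (chr1:212859759-212873182, minus strand), which encodes a JUN partner known for its role in dendritic cells, had no H3K27ac peak in any list. H3K27me3 occupied 4997 and 8522 bp in untreated, 8124 and 6230 bp in TGFβ-treated and 3013 and 6835 bp in PHF13-depleted, TGFβ-treated cells, and overlaid H3K4me3 over 369 to 2271 bp. H3K4me3 occupied 2076 and 2271 bp, 2301 and 2265 bp, and 1670 and 2151 bp.

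The placement of H3K4me3 about the start split the members in the same way as H3K27me3, with FOSB apart. At FOSL1, FOSL2, JUN, JUNB and JUND a peak covered the start itself in 0 of 6 lists, and at FOS, FOSB, ATF3 and BATF3 in 5 or 6. Among the 14390 protein-coding genes with H3K4me3 in all 6 lists, 13.5% had no list in which the start was covered. Of those with H3K27ac in 5 or more lists and H3K27me3 in 0, a set that holds exactly those 5 members, the share was 13.1%. At JUN the gap between the peaks on either side of the start was 545 to 1624 bp wide and at JUND 581 to 733 bp in 6 lists each, and in 5 lists H3K27ac peaks left a gap of 368 to 581 bp at JUN and of 483 to 796 bp at JUND.

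**Figure D2:**
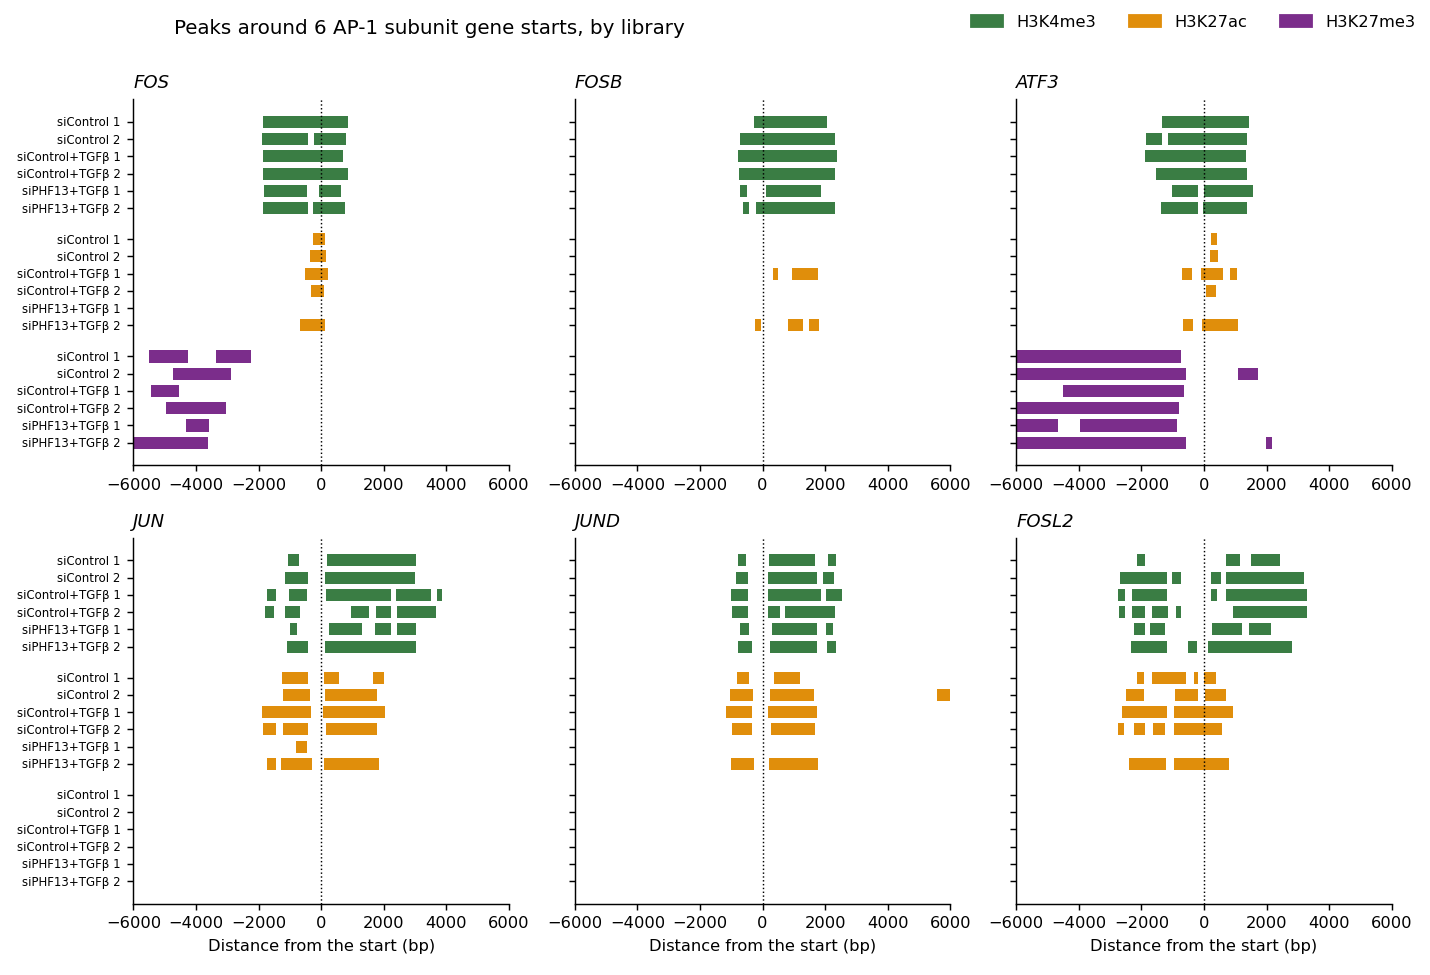
Peaks of H3K4me3, H3K27ac and H3K27me3 by library (rows) and distance in bp from the start of the gene (dotted line, transcription to the right) at 6 members, drawn to 6 kb on each side. H3K4me3 peaks cross the start at FOS, FOSB and ATF3 (its main start) in 5 or 6 libraries and stand on both sides of it at JUN, JUND and FOSL2, and H3K27me3 lies upstream at FOS and ATF3.

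H3K4me3 at the members ranked higher in length than in strength. Mean covered length was above that of 96.4% of protein-coding genes at FOSL2, 96.0% at JUN and 97.9% at ATF3. With 1 start per gene, chosen after the data were seen so that all windows had the same length, the shares were 99.7%, 99.6% and 96.6%. The strongest H3K4me3 peak, ranked by its −log10 q within each list, was stronger than that of a median of 30.7% of genes at FOSL2, 36.9% at JUN and 62.5% at ATF3. At ATF3 this peak lay at the upstream start in every list, whereas the 96.6% describes the main start alone. Across the 9 members the length exceeded that of 71.8% to 97.9% of genes and the median strength that of 30.7% to 62.5%. For H3K27ac both were high at FOSL1, with a median strength above 86.4% of genes, and at JUN (81.6%), and both were 0 at BATF3.

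**Figure D3:**
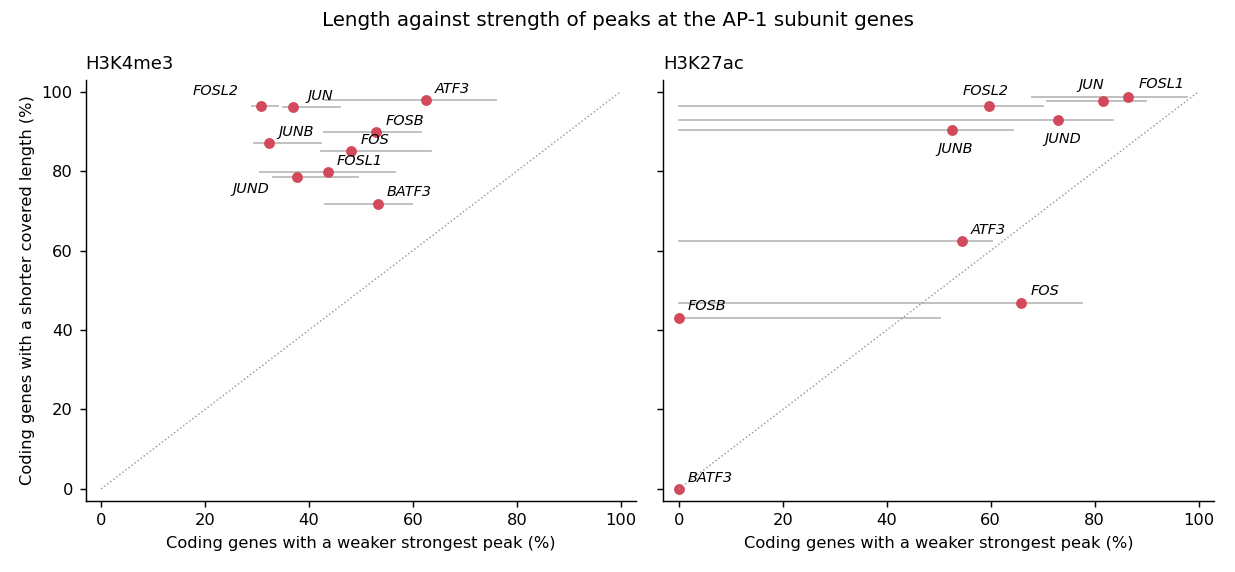
Share of protein-coding genes (%) with a shorter mean covered length (vertical) against the share with a weaker strongest peak, or none, in the same list (horizontal, the median of 6 lists as a point and their range as a line). For H3K4me3 all 9 members lie above the diagonal, FOSL2 and JUN farthest, whereas FOS lies below it for H3K27ac.

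To examine what TGFβ changed, siControl+TGFβ was compared with siControl. A member was counted as higher when both of its libraries exceeded both of the other group, for which the exact two-sided permutation test gives p = 0.333, the smallest it can give with 2 libraries against 2. H3K4me3 was longer at FOSB and JUND, 2 of 9 members, against 36.2% of all protein-coding genes, and shorter at 0 members (1.61%). H3K27ac was longer at FOSL2, JUN and ATF3, 3 of 9 against 34.4%, and shorter at 0 (0.0354%). Their log2 differences of mean length plus 100 bp were 0.58, 0.56 and 2.04. H3K27me3 was longer at 0 members (2.66%) and shorter at ATF3 (2.99%), where the difference was −0.21 on the same scale. The nearest libraries there differed little, with 4210 bp in siControl+TGFβ and 4279 bp in siControl. The 5 kb limit also cut these peaks. Whole, the upstream peaks spanned 6652 and 6591 bp in siControl and 3882 and 8231 bp in siControl+TGFβ libraries, so that the groups overlapped. By the place of the strongest peak within its list some directions turned. H3K4me3 was lower at FOSB and JUND, and also at FOSL1 (14.1% of all genes), and H3K27me3 was higher at ATF3 (6.92%). By place H3K27ac stayed higher at FOSL2 and ATF3 (12.1%), and H3K4me3 was higher at FOSL2 (13.8%). With lists of equal length H3K27ac was longer at 0 members (13.8%). In windows of 2.5 kb H3K27me3 was shorter at 0, beside the 2.99% of all genes in windows of 5 kb. The counts for the active marks were not above the share of all genes. The median log2 difference of the members was 0.11 for H3K4me3 and 0.56 for H3K27ac, beside 0.12 and 0.60 for all genes with a peak.

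With PHF13 depleted, H3K4me3 was shorter than in siControl+TGFβ at FOS, FOSB, FOSL1, JUNB, JUND, ATF3 and BATF3, 7 of 9 members, against 47.3% of all genes, and longer at 0 (0.227%). All genes include 22.1% with H3K4me3 in 0 lists, which could not be counted as shorter, whereas all 9 members had peaks. Among genes with a peak the share is therefore above 47.3%, and 7 of 9 is not read as particular to the members. The largest difference was at JUNB, with 1776 ± 860 bp in siPHF13+TGFβ and 3123.5 ± 568 bp in siControl+TGFβ cells (SD, n = 2), and the smallest of the 7 at FOSL1 (2085 ± 132 and 2380 ± 2.83 bp). Without siPHF13+TGFβ replicate 1 the same 7 members were counted (48.3% of all genes). The median log2 difference was −0.28 for the members and −0.21 for all genes with a peak. Strength within a list did not follow length. By the place of the strongest peak, H3K4me3 was lower at 0 members, against 14.3% of all genes, and higher at FOSL1, FOSL2, JUNB, JUND and BATF3, also against 14.3%. With all lists shortened to the same number of peaks, the 5 members with shorter H3K4me3 were FOS, FOSB, JUNB, ATF3 and BATF3 (44.4% of all genes), and H3K4me3 at FOSL1 was longer (0.399%).

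H3K27ac was neither longer (0.0101% of genes) nor shorter (6.48%) at any member after PHF13 depletion. Replicate 2 of siPHF13+TGFβ was between or above the siControl+TGFβ libraries at each member with a peak, and replicate 1 was at 0 to 331 bp. Without replicate 1, the remaining library exceeded both siControl+TGFβ libraries at FOS and ATF3 (19.0% of all genes) and was below both at 0 members (6.48%). Without replicate 2, the remaining library was below both at 7 members (57.6%). H3K27me3 was longer at 0 members (0.495%) and shorter at 0 (12.2%). The strongest H3K27me3 peak was nonetheless placed higher within its list at ATF3 and BATF3 (5.16%), and lower at 0 members (7.6%).

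The same lengths were tested over all promoter windows with limma, and 0 members passed a Benjamini-Hochberg adjusted p of 0.05 or an unadjusted p of 0.05 in either comparison. For H3K4me3, 19 of 15173 windows passed with TGFβ (0.125%) and 23 with PHF13 depletion (0.152%). The smallest adjusted p of a member was 0.409, shared by 7 members, and at JUNB limma gave a log2 difference of −0.85 ± 0.38 (SE). For H3K27ac, with 8 members among 12282 windows, limma called 0 (0%) with TGFβ and 0 (0%) with PHF13 depletion, against 88 (all longer) and 4 (all shorter) at an unadjusted p under 0.05. The groups were fitted together, so the short list of siPHF13+TGFβ replicate 1 also entered the spread used for the TGFβ comparison. The SE of the log2 difference was 1.51 at each of the 8 members in both comparisons. The absence of calls with TGFβ therefore does not show that H3K27ac was unchanged. For H3K27me3, with 3 members among 8167 windows, limma called 0 (0%) and 0 (0%), against 31 longer and 126 shorter and 10 longer and 180 shorter at that unadjusted p.

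To describe possible enhancers of the members, H3K27ac was summed between 5 and 50 kb from their starts, leaving out 5 kb around every other coding start. JUN stood out, with a mean length above that of 99.6% of protein-coding genes, followed by JUND (98.0%). At JUN H3K27ac occupied 3104 and 4836 bp in siControl cells, 9434 and 7093 bp with TGFβ added and 1123 and 8147 bp with siPHF13 and TGFβ. At JUND it occupied 2185 and 2891 bp, 4700 and 3605 bp, and 591 and 4711 bp. Both genes showed longer distal H3K27ac in both siControl+TGFβ libraries than in both siControl libraries, whereas siPHF13+TGFβ replicate 1 was below both siControl libraries and replicate 2 between the siControl+TGFβ libraries at JUN and above them at JUND.

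With TGFβ, distal H3K27ac was longer at 7 of 9 members (FOSB, FOSL1, FOSL2, JUN, JUNB, JUND and BATF3), against 19.1% of all genes and 41.9% of the 9010 genes that had any distal peak, as all 9 members did. It was shorter at 0 (0.111%). The log2 difference was 1.04 at JUN and 0.69 at JUND. At FOSL2 and BATF3 the difference rested on little, with 178 and 44 bp and with 237 and 170 bp against 0 bp. At JUNB it was 1384 and 514 bp against 0 bp, all of it parts of peaks that, merged over the lists, reach into 5 kb of a coding start. With lists of equal length only JUND was counted (4.03% of genes). With PHF13 depleted, distal H3K27ac was shorter at FOSL2 (3.33% of all genes and 7.33% of those with a distal peak), and longer at 0 members (0.0505%). At FOSL2 it was 0 bp in both libraries because the 50 kb limit cuts through a region that kept a peak of 346 bp in siPHF13+TGFβ replicate 2. Without siPHF13+TGFβ replicate 1 it was longer at FOSB, JUNB, JUND and BATF3 (16.4% of all genes), and without replicate 2 it was shorter at all 9 (28.3%).

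**Figure D4:**
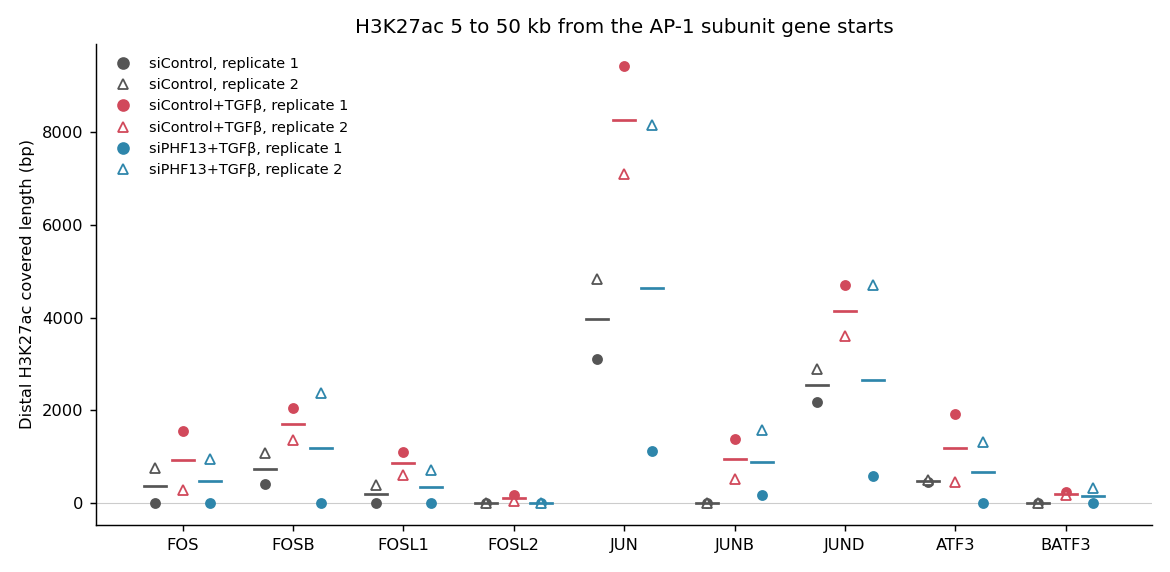
Length covered by H3K27ac peaks (bp) between 5 and 50 kb from the starts of each AP-1 subunit gene, by library (points) with the mean of the 2 libraries of a group (lines). JUN and JUND carry the longest distal H3K27ac, and siPHF13+TGFβ replicate 1 is the lowest library, or at 0 with others, at 8 of the 9 members.

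Merged over the 6 lists, 26 H3K27ac regions that lay wholly beyond 5 kb of any coding start were within 50 kb of a member, and 3 of them had a peak in all 6 lists. The longest was chr1:59280622-59282862, centred at −32023 bp from the JUN start, over the long non-coding RNA gene LINC01135, where peaks occupied 1888 and 1664 bp without TGFβ, 2231 and 1848 bp with it and 878 and 2149 bp once PHF13 was also depleted. The others were chr1:59220280-59222284, centred at 28437 bp from that start, and chr19:18414344-18416454, centred at −22967 bp from the JUND start in no annotated gene, where peaks occupied 1184 and 1485 bp, 2022 and 1619 bp, and 591 and 2092 bp. JUN had 6 such regions, the most of any member, and its start was the nearest coding start to 5 of them. JUNB had 1, in a single list.

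2 of the 26 regions were gained with TGFβ, meaning a peak in both siControl+TGFβ libraries and in neither siControl library, and over all 22886 distal regions 9.52% were. They were chr11:65678703-65679239, centred at −11112 bp from the FOSL1 start, with 484 and 245 bp, and chr2:28668335-28669623, centred at 53254 bp from the main FOSL2 start and so at the 50 kb limit from its last one, with 1114 and 566 bp. Both had 0 bp in siPHF13+TGFβ replicate 1 and a peak in replicate 2 (510 and 346 bp). None of the 26 was absent from both siPHF13+TGFβ libraries after a peak in both siControl+TGFβ libraries (2.72% of all). The coding start nearest to these regions was that of C11orf68 and of PLB1, so an assignment to FOSL1 or FOSL2 is by distance alone.

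The AP-1 motif TGANTCA was found in the 300 bases around the strongest summit of 3 of the 26 regions, near FOSB, JUND and ATF3, and of 12.8% of all distal regions. TGACGTCA was found in 1, chr2:28582148-28582325 near FOSL2, which had a peak in 1 list, and in 0.166% of all. The 300 bases of the regions of JUN and JUND named above, of the region gained near FOSL1 and of the FOSB and ATF3 regions with a motif are shown on the plus strand of hg19, with matches in capitals. The first 2 had a peak in all 6 lists, the FOSL1 region was gained with TGFβ, and the others were taken for their motif.
JUN, chr1:59281640-59281939 (plus strand): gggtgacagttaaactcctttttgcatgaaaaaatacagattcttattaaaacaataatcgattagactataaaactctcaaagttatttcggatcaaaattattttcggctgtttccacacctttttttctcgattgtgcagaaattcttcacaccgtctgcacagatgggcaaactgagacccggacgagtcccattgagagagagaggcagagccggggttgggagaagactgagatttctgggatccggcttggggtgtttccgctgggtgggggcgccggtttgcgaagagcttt
JUND, chr19:18415478-18415777 (plus strand): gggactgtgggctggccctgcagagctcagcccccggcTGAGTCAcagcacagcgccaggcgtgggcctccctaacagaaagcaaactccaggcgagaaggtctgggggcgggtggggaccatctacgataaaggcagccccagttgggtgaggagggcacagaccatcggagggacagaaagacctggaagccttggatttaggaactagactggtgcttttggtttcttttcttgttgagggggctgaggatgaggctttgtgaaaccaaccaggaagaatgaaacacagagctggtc
FOSL1, chr11:65678694-65678993 (plus strand): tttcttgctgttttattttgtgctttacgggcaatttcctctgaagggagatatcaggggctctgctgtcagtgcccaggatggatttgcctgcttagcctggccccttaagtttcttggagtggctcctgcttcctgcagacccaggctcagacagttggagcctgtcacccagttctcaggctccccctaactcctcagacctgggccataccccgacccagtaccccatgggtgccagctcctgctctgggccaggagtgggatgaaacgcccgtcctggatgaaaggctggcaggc
FOSB, chr19:45942886-45943185 (plus strand): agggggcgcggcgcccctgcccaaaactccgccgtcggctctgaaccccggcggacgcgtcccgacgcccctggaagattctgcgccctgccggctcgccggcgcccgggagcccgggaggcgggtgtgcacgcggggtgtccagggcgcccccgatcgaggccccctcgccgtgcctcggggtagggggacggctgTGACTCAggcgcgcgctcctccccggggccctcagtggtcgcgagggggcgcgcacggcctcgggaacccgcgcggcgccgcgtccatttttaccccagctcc
ATF3, chr1:212769786-212770085 (plus strand): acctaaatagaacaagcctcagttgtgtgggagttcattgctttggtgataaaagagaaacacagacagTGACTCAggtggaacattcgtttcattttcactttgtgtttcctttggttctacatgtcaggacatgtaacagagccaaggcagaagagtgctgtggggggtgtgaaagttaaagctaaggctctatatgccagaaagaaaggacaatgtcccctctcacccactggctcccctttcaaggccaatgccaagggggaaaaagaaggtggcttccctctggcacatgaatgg
The ATF3 sequence lies within the ATF3 gene, in a region centred at −12423 bp from its main start, and the FOSB sequence within ERCC1. H3K27ac covered 979 bp of the ATF3 region in siControl+TGFβ replicate 1, 469 bp in siPHF13+TGFβ replicate 2 and 0 bp in the other 4 lists. H3K4me3 peaks also lay over the printed stretch in 6 lists at JUN and FOSB, 5 at JUND, 4 at ATF3 and 0 at FOSL1.

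Other genes of the pathway were taken as 4 lists of 54 genes, namely further bZIP partners, upstream kinases, other immediate early genes and known AP-1 targets. With TGFβ, H3K27ac was longer at 28 of the 54 (34.4% of all genes) and H3K4me3 at 24 (36.2%), and H3K4me3 was shorter at 1 (1.61%). With PHF13 depleted, H3K4me3 was shorter at 31 (47.3%) and H3K27ac at 5 (6.48%). IL11, a cytokine gene and AP-1 target, had H3K27ac of 0 and 0 bp in siControl and 1705 and 591 bp in siControl+TGFβ cells. BATF2, a relative of BATF3, had H3K27ac of 0 and 235 bp in untreated, 1058 and 1016 bp in TGFβ-treated and 0 and 471 bp in PHF13-depleted, TGFβ-treated cells, and H3K4me3 of 1438 and 1492 bp in siControl+TGFβ against 799 and 849 bp in siPHF13+TGFβ cells. MAPK10, which encodes a JUN N-terminal kinase, had H3K27me3 of 1538 and 3172 bp in siControl cells, 0 and 0 bp with TGFβ added and 176 and 628 bp with siPHF13 and TGFβ. It was the only 1 of the 54 with shorter H3K27me3 with TGFβ (2.99% of all genes) and the only 1 with longer after depletion (0.495%). After depletion H3K27me3 was shorter at 2 (12.2%). These were MAPK8 (0 and 1558 against 1856 and 2601 bp) and NR4A1 (2169 and 5941 against 8144 and 6244 bp).

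Over the 18 lists, the pattern of log2 covered length of FOSL1 was nearest among the members to that of JUN, with a root mean square difference of 0.35, and that of FOSL2 to JUND (0.42). FOS was nearest to ATF3. Among all protein-coding genes, the pair most like each member was ENO1 and CKS1B for FOSL1, STX10 and IER2 for FOSL2, ACIN1 and FAM217B for JUN, LURAP1L and BCL2A1 for JUNB, and ZNRD2 and TCIRG1 for JUND. It was SETD7 and HINT3 for FOS, SIM2 and ACSS2 for FOSB, GLI1 and LMF1 for ATF3, and MAN1A1 and AMZ1 for BATF3. The smallest differences were 0.09, for ZNRD2 and TCIRG1 with JUND, and the largest among these pairs was 0.52 (LMF1 and ATF3).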

How the data were processed

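H3K4me3, H3K27ac and H3K27me3 ChIP-seq peak lists of PANC-1 cells were analysed, 2 libraries per group and modification, and 6 input samples were not analysed here. Per the submitters' processing notes and the study's methods, the authors trimmed reads with Trim Galore 0.4.1, aligned them to hg19 with Bowtie2 2.4.1, used Picard and deepTools 3.5.0, and called peaks against input in each library with MACS2 2.2.7.1. The deposited lists hold, as the authors' peak caller wrote them, a score, a fold enrichment over input and −log10 p-values and q-values, and no reads, so depth is unknown and the study's test on reads was not used here. The lists reach down to a −log10 q of 1.30 (H3K4me3 and H3K27ac) and 1.00 (H3K27me3), and for the first 2 this is looser than the threshold in the study's methods.

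From these, the bases covered by peaks were summed within 5 kb of every start of the 19794 protein-coding genes (GENCODE release 44 on hg19) and, for H3K27ac, to 50 kb, and the strongest peak was ranked within its list by −log10 q. Groups were taken from the labels. They were compared by whether their libraries overlapped, by the exact permutation test and, on log2(bp + 100) of windows with a peak in 2 or more lists, with limma 3.58.1 in R 4.3.3, with adjusted p-values over all windows. The interval and limma steps were tested on simulated data. Python 3.11.15, NumPy 2.4.6, pandas 2.3.3 and SciPy 1.17.1 were used.

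The members and lists were chosen with earlier results of these data known. All 9 members were named. Of other genes, at most 3 per modification and comparison were eligible, those of the 4 pathway lists with the largest difference among non-overlapping groups. Of regions, the longest per member and those gained or lost were eligible, and for each member the 2 most alike genes. The region at chr1:59220280-59222284 and the FOSB and ATF3 regions with a motif were chosen after their values were seen, as were the crossed block, the analysis with 1 start per gene, the TGACATCA motif and the 500-base motif window. Same-numbered libraries did not deviate from their group means in the same direction, so the numbers were not used as pairs. Their deviations ran in opposite directions for H3K4me3 (r of −0.363 and −0.333) and H3K27ac (−0.314 and −0.311). For H3K27me3 r was 0.0288 and 0.0129. The promoter motif matches are given for FOS, JUN and JUND, and those of 1 further member are not reported here.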

Additional observations from a re-analysis of the deposited data

How the results depend on the processing

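Depth was not measurable from peak lists, and covered length follows how many peaks a library yielded. With 2 libraries a group, 1 library can decide a count. Of 168 alternatives other than leaving out a library, 125 gave a count within 1.5 times the reported one, as did 77 of 112 that left out a library. These include results that counted no member or window and stayed empty, so the tallies do not measure how stable the remaining counts were. The cause of the changes beyond 1.5 times was not tested.

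Shares in brackets are those of all protein-coding genes under the same setting. By the place of the strongest peak, H3K4me3 with TGFβ was higher at 1 member (13.8%) and lower at 3 (14.1%). With PHF13 depletion it was higher at 5 (14.3%) and lower at 0 (14.3%). By place, H3K27ac with depletion was higher at 2 (5.20%) and lower at 3 (15.3%). H3K27me3 by place was higher at 1 with TGFβ (6.92%) and at 2, ATF3 and BATF3, with depletion (5.16%). With lists of equal length, H3K4me3 was lower at 1 with TGFβ (1.93%) and higher at 1 with depletion (0.399%). H3K27ac was then higher at 0 with TGFβ (13.8%), and distal H3K27ac was higher at 1 with TGFβ (4.03%) and lower at 0 with depletion (2.15%). The single member with shorter distal H3K27ac after depletion became 0 at −log10 q of at least 3 (2.71%) and at 25 kb (2.44%). The single member with shorter H3K27me3 with TGFβ became 0 at −log10 q of at least 3 and in windows of 2.5 and 1 kb. In 1 kb windows H3K27me3 after depletion was shorter at 1. For these H3K27me3 counts only the shares of the main setting are given, 2.99% with TGFβ and 12.2% with depletion.

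For H3K4me3, limma called 19 windows longer with TGFβ, but 41 and 0 with pseudocounts of 10 and 500 bp, 7 without the filter, 9 with libraries centred and 4 with lists of equal length. After depletion it called 22 shorter, but 48 and 0, 12, 11 and 4 under the same settings, and the 1 longer became 0 with 500 bp, without the filter and with equal lists. Without the filter it called 2 longer with TGFβ and 2 shorter with depletion for H3K27ac, and for H3K27me3 3 longer and 16 shorter with TGFβ and 3 shorter with depletion. With the replicate block, H3K4me3 calls fell to 0 with TGFβ and to 0 longer and 0 shorter with depletion, and no H3K27ac or H3K27me3 window was called. The crossed replicate block, added after seeing the data because H3K4me3 deviations correlated at −0.363 and −0.333, gave 8 longer with TGFβ and 0 longer and 8 shorter with depletion. For H3K27ac it called 0 windows. At an unadjusted limma p under 0.05 it gave 473 longer and 1 shorter H3K27ac windows with TGFβ and 408 shorter with depletion. The main fit gave 88 longer and 4 shorter.

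Leaving out 1 library at a time, members with longer H3K4me3 with TGFβ numbered 3 to 7 and shorter 0 to 2. The shares of all genes ran from 42.7% to 58.1% and from 3.65% to 10.2%. With depletion 0 members were longer (0.662% to 8.10% of all genes) and 7 to 9 shorter (48.3% to 72.6%). For H3K27ac they numbered 3 to 8 longer (34.8% to 62.2% of all genes) and 0 shorter (0.0556% to 4.05%) with TGFβ. With depletion they numbered 0 to 2 longer (0.0101% to 19.0%) and 0 to 7 shorter (6.48% to 57.6%). Distal H3K27ac was longer at 7 to 9 with TGFβ (19.5% to 38.8% of all genes). With depletion it was longer at 0 to 4 (0.0556% to 16.4%) and shorter at 1 to 9 (3.34% to 28.3%). H3K27me3 with TGFβ was longer at 0 to 1. The 1 was BATF3 without siControl replicate 2 (26.4% of all genes) and FOS without siControl+TGFβ replicate 1 (7.06%). It was shorter at 1 to 2 with TGFβ, and longer at 0 to 1 and shorter at 0 to 2 with depletion. For these 3 ranges only the shares with all libraries are given, which were 2.99%, 0.495% and 12.2%. A share with a library left out cannot be smaller, so these counts are not read as particular to the members. By limma, H3K4me3 windows numbered 0 longer with TGFβ and 0 longer and 0 to 5 shorter with depletion, and H3K27ac windows 0 to 1 longer and 0 to 9457 shorter with depletion. The 9457 arose without siPHF13+TGFβ replicate 2, where the lone replicate 1 was assumed to vary like the other groups.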
